A study of Mus musculus with 16 samples.

Results

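The comparison described here set the 4 arrays titled as CCR2+ tumour-associated macrophages of RbpjiΔEC mice against the 4 arrays titled as CCR2+ tumour-associated macrophages of control mice. The members were chosen by these titles alone, which gave 8 of the 16 arrays of the series, and every gene of these arrays was described. All mice were C57BL/6N females that received a single oral dose of 1 mg tamoxifen at an age of 8 to 12 weeks. After 3 weeks, 5000000 cells of ID8-luc, an ovarian cancer line of the mouse that carries luciferase, were placed in the peritoneal cavity, where they grew for 4 weeks. Cells were then washed out of the cavity and sorted by CD45, CD11b, F4/80 and CCR2, and total RNA was hybridised to Affymetrix mouse genome arrays. The RbpjiΔEC label denotes inducible loss of Rbpj in endothelial cells. The Cre driver, the alleles carried by the control mice and whether each array stands for a separate mouse are not given in the sources used here. The protocol lists tamoxifen for the mice as a whole, controls included. Should the 4 arrays of a group share a mouse, the p-values would rest on variation that may be technical.

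Rbpj is the DNA-binding protein through which cleaved Notch receptors switch on their target genes. In blood vessels, Notch signalling between neighbouring endothelial cells restrains sprouting and sets how the vessel wall presents adhesion molecules and soluble factors to immune cells. The peritoneal cavity holds long-lived resident macrophages, which depend on the transcription factor Gata6, and smaller numbers of cells renewed from blood monocytes, which enter tissue with the help of the chemokine receptor Ccr2. Ovarian tumour cells spread in this same cavity, and macrophages there can present antigen, make complement and cytokines, or take on wound-repair programmes.

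The sort label and the RNA did not match for Ccr2. After normalization of all 16 arrays together, Ccr2 read 7.99 ± 1.05 (SD, n = 4) in CCR2+ control and 7.69 ± 0.47 (n = 4) in CCR2+ RbpjiΔEC arrays, against 9.99 ± 1.08 and 8.94 ± 1.32 in the CCR2- arrays, and each of the 4 probe sets of Ccr2 was brighter on average in the CCR2- arrays. Gata6 read 12.04 in CCR2+ and 7.77 in CCR2- control arrays, and Adgre1, the gene of F4/80, 13.25 and 9.21. The B cell receptor gene Cd79a read 7.65 and 12.78. The arrays labelled CCR2+ thus had high levels of resident peritoneal macrophage genes, and "CCR2+" is used below only as the label. All values are log2 intensities, and 1 log2 unit is a 2-fold difference. The trp control, a bacterial sequence without a match in mouse RNA, lay at 6.35 to 6.50 in the 8 CCR2+ arrays, and levels near it carry little signal. The deposited intensities had array means of 821 to 827, against 481 to 762 in the CCR2- arrays.

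No gene passed the test between the genotypes. Of 18194 genes, limma called 0 (0%) at an adjusted p under 0.05, and the smallest adjusted p was 0.908. At an unadjusted p under 0.05, 435 genes (2.39%) read lower and 483 (2.65%) higher in RbpjiΔEC arrays, 918 in all where 910 are expected by chance. All 4 RbpjiΔEC arrays lay below all 4 control arrays for 232 genes (1.28%) and above them for 377 (2.07%). The balance of the directions depended on the scaling. Groups without overlap numbered 323 lower and 311 higher under median centring, and 180 lower and 639 higher with no further normalization. Counts at an unadjusted p under 0.05 were 584 lower and 377 higher, and 339 lower and 714 higher, in the same settings. The estimate was below 0 for 9548 genes (52.5%). These shares are the background for every list below, in which 0 members passed.

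The differences were small for most genes. The median size of a difference was 0.0959 log2 units, and 95% of genes differed by less than 0.348. The median standard error (SE) was 0.126. For 17794 genes (97.8%) the 95% confidence interval lay inside a 2-fold difference in either direction. A difference of 1 log2 unit or more was estimated for 8 genes. Sec61b, Acp5, Nrp2, S100a9 and Acod1 read lower in RbpjiΔEC arrays, and Agr3, Chil3 and Wnt8b higher. The groups did not overlap for Sec61b, Acp5 and Nrp2 and overlapped for the other 5.

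**Figure D1:**
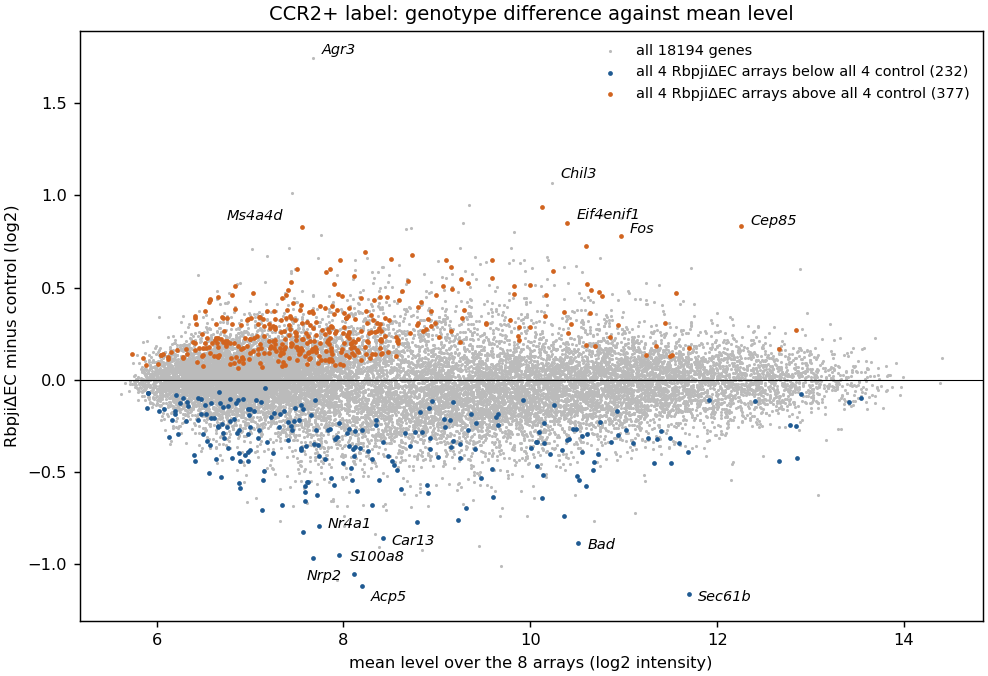
Each point is a gene, with its mean level over the 8 CCR2+ arrays (log2 intensity) on the x axis and the RbpjiΔEC minus control difference (log2) on the y axis. Blue and orange points are the 232 and 377 genes whose groups did not overlap, and the 377 higher genes lie mostly at low and middle levels.

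Among genes that read lower without overlap and lay at least 1 log2 unit above the trp control in control arrays, Nr4a1 had the smallest p value, followed by Sec61b, Tbc1d30, Car13, Rasgef1a and Acp5. Nr4a1, an orphan nuclear receptor induced within minutes of stimulation and needed by patrolling monocytes, read 8.08, 8.07, 8.18 and 8.20 in control arrays 1 to 4 and 7.38, 7.64, 7.24 and 7.10 in RbpjiΔEC arrays 1 to 4. The control arrays lay close together, and every RbpjiΔEC array was below them. The difference was −0.79 (SE 0.12, 95% interval −1.06 to −0.53), with limma's adjusted p = 0.908.

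Sec61b, which encodes the beta chain of the Sec61 pore that admits nascent proteins to the secretory route, read 12.15, 12.35, 11.97 and 12.66 in control and 10.73, 11.55, 11.13 and 11.07 in RbpjiΔEC arrays. The highest RbpjiΔEC array stayed below the lowest control array. The difference was −1.16 (SE 0.19, 95% interval −1.60 to −0.72, adjusted p = 0.908), or 2.24-fold. Other genes of the same pathway differed less. Of 27 measured genes of the translocon and of entry to the secretory route, 15 had negative and 12 positive estimates, with a median of −0.03. Sec61a1, which forms the pore itself, differed by 0.06, the accessory pore gene Sec63 by 0.11 and Ssr2, a translocon-associated protein gene, by −0.28. A single probe set measured Sec61b.

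Acp5, the tartrate-resistant acid phosphatase of osteoclasts and some macrophages, read 8.72, 8.44, 8.57 and 9.29 in control and 7.55, 7.36, 8.19 and 7.44 in RbpjiΔEC arrays, a difference of −1.12 (SE 0.23). RbpjiΔEC 3 lay nearest to the control arrays. Acp5 belongs to the lysosomal list and to the list of osteoclast-type macrophage genes. In the latter, 10 of 17 measured members had negative estimates with a median of −0.02, the protease gene Ctsk differed by −0.10, and the integrin gene Itgb3 differed by 0.57. Car13, a cytosolic carbonic anhydrase gene, read 8.40, 8.87, 9.07 and 9.05 in control and 7.94, 7.72, 8.12 and 8.19 in RbpjiΔEC arrays, and all 3 of its probe sets had negative estimates. The groups were separate for Car13 by a narrow margin.

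Nrp2, a coreceptor for semaphorins and vascular growth factors, read 8.57, 8.47, 8.77 and 8.73 in control and 8.34, 6.93, 7.59 and 7.48 in RbpjiΔEC arrays. RbpjiΔEC 1 lay just under the control arrays and RbpjiΔEC 2 far below them. Of its 4 probe sets, 3 had negative estimates. Bad, a promoter of apoptosis, differed by −0.89 (SE 0.23), and its other probe set gave −0.19. Src, a tyrosine kinase gene, differed by −0.55 (SE 0.13), and its other probe set gave −0.18. Rasgef1a, an exchange factor gene for Ras-type GTPases, differed by −0.68 (SE 0.13), and its other probe set gave −0.48. For Tbc1d30 the chosen probe set gave −0.55 and the other 0.07.

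Slamf9 and Trem3, a pair of immune receptor genes, were high in control 4. Slamf9 read 8.65, 8.85, 8.94 and 10.26 in control and 8.33 to 8.50 in RbpjiΔEC arrays, and Trem3 read 7.84, 7.50, 7.66 and 9.64 in control and 6.83 to 7.42 in RbpjiΔEC arrays. In both, control 4 was more than 1 log2 unit above the next control array.

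Among genes that read higher, numbered gene models aside, the largest differences without overlap were in Eif4enif1, Cep85, Ms4a4d and Fos. Fos, a subunit of the AP-1 transcription factor, read 10.71, 10.67, 10.82 and 10.12 in control and 11.68, 11.17, 11.68 and 10.91 in RbpjiΔEC arrays, a difference of 0.78 (SE 0.21). RbpjiΔEC 4 was only slightly above control 3. Ms4a4d, a gene of the membrane-spanning 4-domain family, read 6.89, 7.26, 7.36 and 7.07 in control and 7.87, 7.37, 8.22 and 8.43 in RbpjiΔEC arrays. The control values are near the trp control, and RbpjiΔEC 2 was barely above the highest of them.

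Eif4enif1, which carries the cap-binding factor eIF4E into the nucleus, read 10.21, 10.42, 9.95 and 9.30 in control and 11.02, 10.43, 10.90 and 10.93 in RbpjiΔEC arrays. RbpjiΔEC 2 was level with control 2. Cep85, a centrosomal protein gene, differed by 0.83 (SE 0.17) with its chosen probe set and by −0.06 with the other. Dnajb13, a cochaperone gene of motile cilia, read 9.90, 10.08, 10.05 and 9.76 in control and 10.59, 10.33, 10.58 and 10.65 in RbpjiΔEC arrays, a difference of 0.59 (SE 0.11). Its groups were tight and apart. Hdgfl3 differed by 0.72 (SE 0.17) with all 3 of its probe sets positive, and Plekhb1 by 0.69 (SE 0.14). Ptms, which encodes parathymosin, differed by 0.68 (SE 0.14) with its chosen probe set and by 0.05 and 0.11 with the others.

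**Figure D2:**
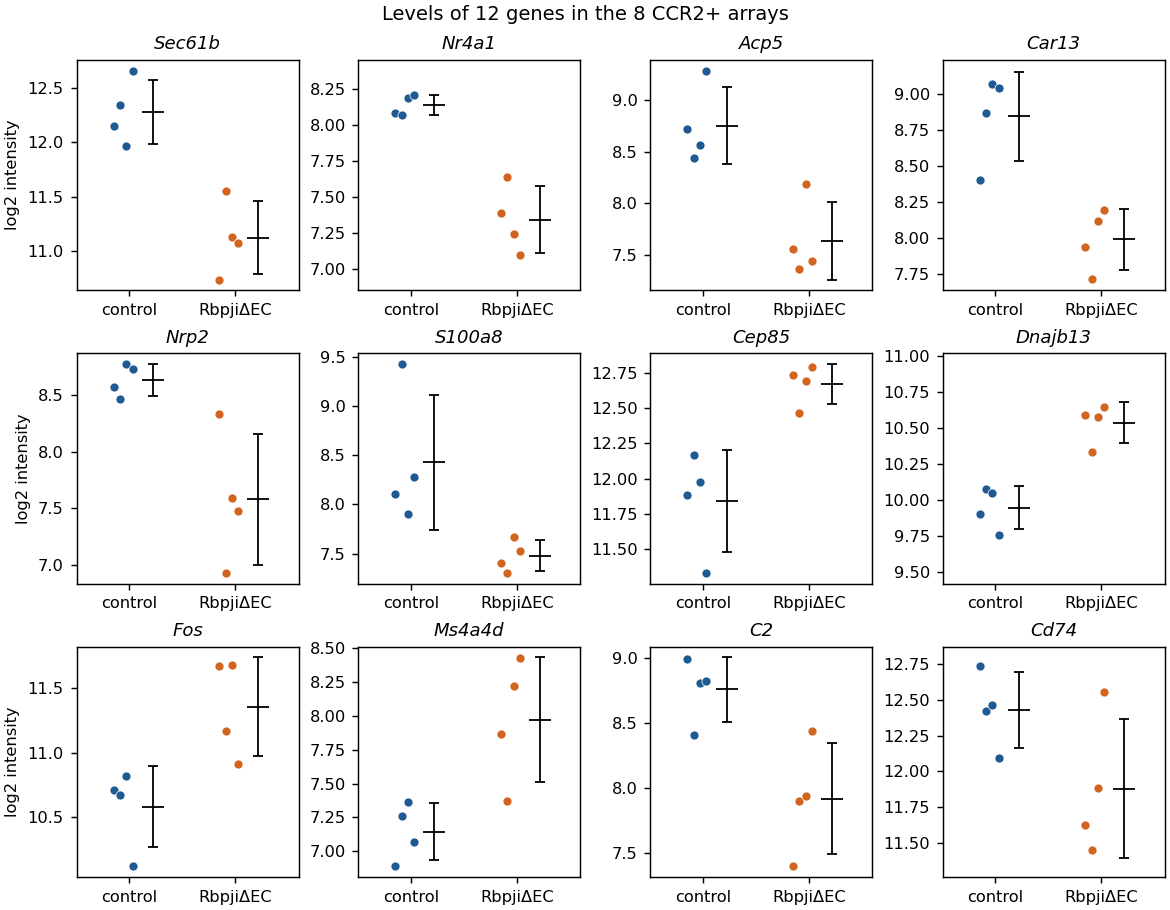
Each panel gives the log2 intensity of a gene in the 4 control (blue) and 4 RbpjiΔEC (orange) arrays, with the mean and SD as a bar beside the points. The groups are apart for Sec61b, Nr4a1 and Dnajb13 and share a stretch for C2 and Cd74.

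The deletion itself could not be checked in these arrays, because the sort leaves out endothelial cells. Rbpj in the sorted cells read 11.87, 11.64, 11.68 and 11.47 in control and 12.09, 11.89, 11.48 and 11.50 in RbpjiΔEC arrays. The groups overlapped, with a difference of 0.07 (SE 0.16, 95% interval −0.28 to 0.42), and of its 3 probe sets 2 were positive. The Notch pathway and target list had 19 measured members, of which 15 had positive and 4 negative estimates, with a median of 0.07 that was 0.01 under median centring. No member was among the genes that read higher without overlap.

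Among the Notch receptors, Notch1 differed by 0.05 and Notch2 by 0.10, and for Notch2 the other probe set gave −0.17. Notch4, a receptor best known from endothelium, read 8.17 to 8.21 in control and 7.74 to 8.15 in RbpjiΔEC arrays, a difference of −0.27 (SE 0.11) with 3 of 3 probe sets negative. It was the only list member whose groups did not overlap. The ligand gene Jag1 differed by 0.20, and Lfng, which adds sugars to Notch receptors and alters their ligand choice, by −0.29. The target genes Hes1, Hey1 and Nrarp differed by −0.05, 0.19 and 0.13, with SEs of 0.12, 0.12 and 0.13. Nrarp had a mean of 6.77, near the trp control, and its other probe set gave −0.12. Of the 19 measured list members, 7 had means under 7.43, which is 1 log2 unit above the trp control.

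Gate genes and genes of large peritoneal macrophages read much alike in the genotypes. Of 10 measured gate and macrophage genes, 5 had negative and 5 positive estimates, with a median of −0.005, and the mean level of the list ran from 12.59 to 12.68 in RbpjiΔEC and from 12.55 to 12.71 in control arrays. Adgre1 differed by −0.01 (SE 0.10), Itgam, the gene of CD11b, by −0.09 (SE 0.08) and Ptprc, the gene of CD45, by 0.30 (SE 0.16). Of 23 measured genes of large peritoneal macrophages, 11 had negative and 12 positive estimates, with a median of 0.003 that was −0.08 under median centring. Gata6 differed by −0.06 (SE 0.10) and Timd4, a phosphatidylserine receptor for apoptotic cells, by 0.01 (SE 0.09). Lrg1, a secreted glycoprotein gene that modifies TGF-beta signalling in vessels, had the most negative estimate of that list at −0.72 (SE 0.21). It read 11.75, 11.28, 11.81 and 11.11 in control and 10.98, 11.12, 10.53 and 10.43 in RbpjiΔEC arrays, so RbpjiΔEC 2 and control 4 crossed.

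Ccr2 varied more within a genotype than between them. It read 6.90, 9.47, 8.49 and 7.52 in control and 7.90, 8.35, 7.15 and 7.65 in RbpjiΔEC arrays, a difference of −0.33 (SE 0.50). Without control 2 the difference was 0.13. In RNA of pooled sorted cells, fewer cells with Ccr2 and less Ccr2 RNA per cell cannot be told apart, and the same holds for every gene below.

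Genes of antigen presentation on MHC class II mostly had negative estimates, 10 of 11 measured, with a median of −0.22 beside −0.008 over all genes. Cd74, the invariant chain that guides class II molecules to the endosome, read 12.73, 12.42, 12.46 and 12.09 in control and 11.63, 11.45, 11.88 and 12.55 in RbpjiΔEC arrays. RbpjiΔEC 1, 2 and 3 lay below every control array, and RbpjiΔEC 4 lay above 3 of them. The difference was −0.55 (SE 0.23, limma's adjusted p = 0.918).

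H2-Ab1, the beta chain of the I-A molecule, read 12.54, 12.45, 12.40 and 12.16 in control and 11.94, 11.32, 12.01 and 12.45 in RbpjiΔEC arrays, with 3 of 3 probe sets negative, and H2-Eb1, the beta chain of I-E, differed by −0.55 (SE 0.26). H2-Aa, the alpha chain of I-A, differed by −0.41 (SE 0.26). In each of these chains RbpjiΔEC 2 was the lowest array, and RbpjiΔEC 4 was not below the control range. Ciita, the master regulator of class II transcription, differed by −0.25, and H2-DMa, which helps load peptide, by −0.21. None of the 11 members had groups without overlap. The list's mean deviation from the 8-array mean was −0.14, −0.30, −0.16 and 0.08 in RbpjiΔEC arrays 1 to 4 and 0.21, 0.06, 0.18 and 0.06 in control arrays 1 to 4.

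On the MHC class I side, 10 of 12 measured genes had negative estimates with a median of −0.06. Tap2, a subunit of the peptide transporter into the endoplasmic reticulum, differed by −0.40 (SE 0.19) and Tapbp, which bridges that transporter to class I, by −0.24 (SE 0.12).

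Interferon-induced genes had negative estimates in most cases, but the 4 RbpjiΔEC arrays did not share a level. For interferon gamma, 11 of 12 measured members were negative with a median of −0.17. The mean deviation of this list was −0.43 and −0.52 in RbpjiΔEC 1 and 2 and 0.28 and 0.27 in RbpjiΔEC 3 and 4, against −0.01 to 0.16 in control arrays. RbpjiΔEC 1 and 2 were thus below every control array, and RbpjiΔEC 3 and 4 above every one. Irf1, a transcription factor of the interferon gamma response, read 11.85 to 11.96 in control arrays, 11.04 and 11.28 in RbpjiΔEC 1 and 2, and 11.93 in both RbpjiΔEC 3 and 4. Cxcl10, a T cell attractant, read 7.21 to 7.37 in control and 6.15, 5.99, 7.39 and 7.01 in RbpjiΔEC arrays, the first pair under the trp control. Without RbpjiΔEC 2 the list median was −0.03.

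For type I interferon, 18 of 21 measured members were negative with a median of −0.13, and −0.01 without RbpjiΔEC 2. The mean deviation was −0.27, −0.32, 0.04 and 0.25 in RbpjiΔEC arrays 1 to 4 and 0.25, −0.11, 0.22 and −0.06 in control arrays 1 to 4. RbpjiΔEC 4 was level with the highest control array. Oas3, an activator of RNase L, differed by −0.43 (SE 0.19) and Ifi35 by −0.34 (SE 0.15), with 3 of 3 Ifi35 probe sets negative. Mx1 and Oas2 differed by 0.10 and 0.11.

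Of the 45 lists, only complement had all 4 RbpjiΔEC arrays below all 4 control arrays in its mean deviation. The values were −0.19, −0.07, −0.16 and −0.10 in RbpjiΔEC arrays 1 to 4 and 0.19, −0.04, 0.12 and 0.25 in control arrays 1 to 4, so RbpjiΔEC 2 and control 2 lay close. Among single genes, 1.28% were separated in the same direction. The separation of the list was picked from 45 and was not tested. Of 10 measured members, 9 had negative estimates, with a median of −0.11. With the actin 3' to 5' signal, an array measure of RNA integrity, as a covariate, the median was 0.03. That signal ran partly with genotype, so this fit cannot tell RNA quality and genotype apart. Cfb, the protease factor B of the alternative pathway, read 12.98, 12.92, 13.13 and 13.23 in control and 12.50, 12.81, 12.57 and 12.69 in RbpjiΔEC arrays. It was the only member whose groups did not overlap, with a difference of −0.42 (SE 0.10, limma's adjusted p = 0.908).

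C2, the matching protease of the classical pathway, read 8.99, 8.41, 8.81 and 8.83 in control and 7.40, 7.90, 7.94 and 8.44 in RbpjiΔEC arrays, a difference of −0.84 (SE 0.21) with 3 of 3 probe sets negative. Only RbpjiΔEC 4 and control 2 crossed. C1ra and C1s1, the proteases of the C1 complex, differed by −0.51 (SE 0.17) and −0.55 (SE 0.30). The recognition subunit genes C1qa, C1qb and C1qc differed less, by −0.04, −0.15 and −0.05. C3ar1, the receptor for C3a, differed by 0.11.

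**Figure D3:**
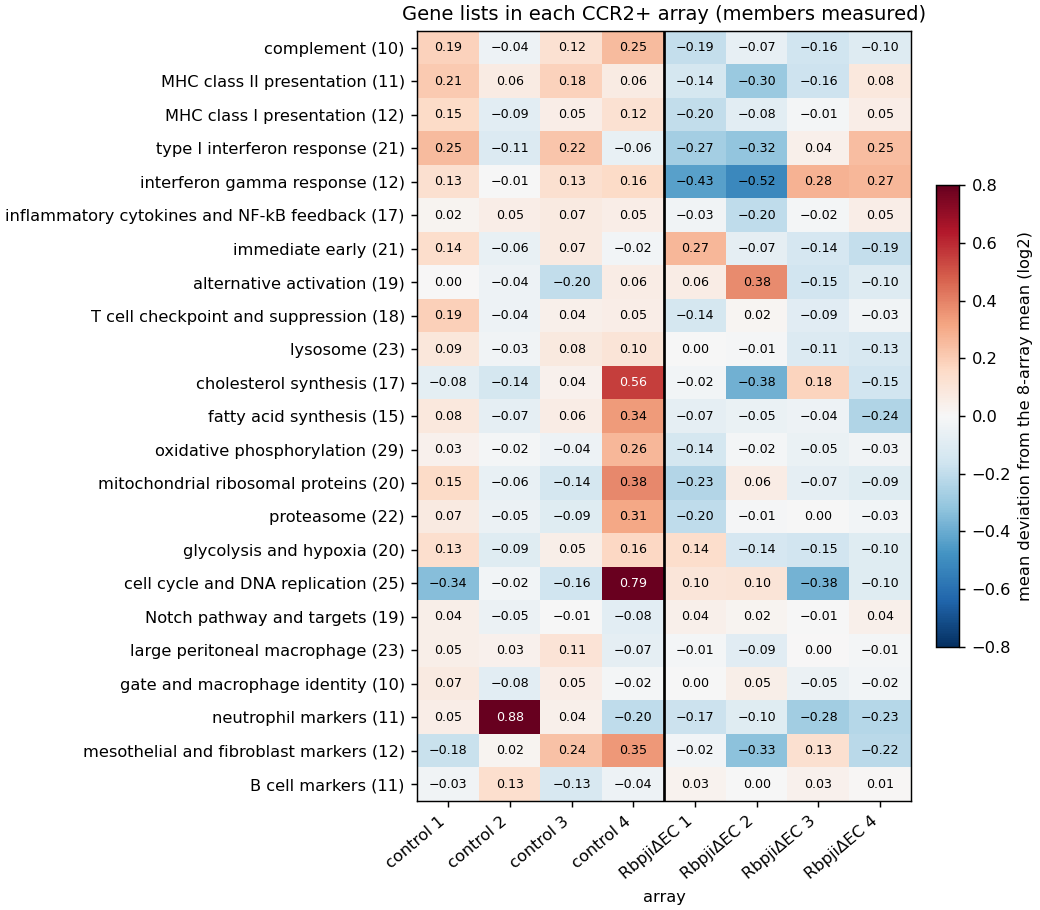
Each cell gives the mean deviation of a list's measured members from their 8-array mean (log2) in an array, with control arrays left and RbpjiΔEC arrays right of the line. Several lists are negative in all 4 RbpjiΔEC arrays, among them complement, oxidative phosphorylation, fatty acid synthesis and neutrophil markers. Complement, negative in control 2 as well, has all 4 RbpjiΔEC arrays below every control array. Interferon gamma genes split RbpjiΔEC 1 and 2 from 3 and 4, and several metabolic lists are highest in control 4.

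Inflammatory cytokine genes gave 10 negative and 7 positive estimates, with a median of −0.15. Il1a, an alarm cytokine of the interleukin-1 family, read 9.14, 9.51, 9.21 and 8.98 in control and 8.87, 8.17, 8.69 and 8.65 in RbpjiΔEC arrays, a difference of −0.62 (SE 0.17) without overlap. Il1b differed by −0.40 (SE 0.17) with overlap and Tnf by −0.15 (SE 0.11). Il6 read 9.71 to 10.17 in control and 8.63, 8.40, 10.47 and 10.23 in RbpjiΔEC arrays. As for interferon gamma genes, RbpjiΔEC 1 and 2 were below the control range and RbpjiΔEC 3 and 4 above it. The inflammasome sensor gene Nlrp3 differed by 0.42 (SE 0.25) and Nfkbia, an inhibitor of NF-kB, by 0.23 (SE 0.15).

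Chemokine ligand genes were balanced, with 11 negative and 10 positive estimates of 21 and a median of −0.03. Ccl5, which draws T cells and monocytes, read 8.05, 7.84, 7.91 and 7.76 in control and 7.14, 6.84, 7.62 and 7.53 in RbpjiΔEC arrays, a difference of −0.61 (SE 0.17). Cxcl3, a neutrophil attractant, differed by −0.53 (SE 0.18), at levels of 5.88 to 7.11 near the trp control. These were the list's members without overlap. The eosinophil attractant Ccl24 differed by 0.32 (SE 0.14) with overlap.

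Immediate early genes did not share a direction. Of 21 measured, 12 had negative and 9 positive estimates, with a median of −0.04 and a span from −0.79 for Nr4a1 to 0.78 for Fos. Dusp1, a phosphatase that ends MAP kinase signals, read 12.93, 12.40, 13.05 and 11.96 in control and 13.24, 12.98, 13.31 and 13.21 in RbpjiΔEC arrays, a difference of 0.60 (SE 0.22). Its groups overlapped only through RbpjiΔEC 2. Atf3, Ier3, Egr2 and Junb differed by −0.42, −0.39, −0.38 and −0.33.

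Genes of alternative activation, the programme that interleukin-4 induces, gave 8 negative and 11 positive estimates of 19, with a median of 0.05. Chil3, which encodes the chitinase-like protein Ym1, read 9.51, 10.41, 9.18 and 9.68 in control and 10.18, 10.92, 11.33 and 10.61 in RbpjiΔEC arrays, a difference of 1.07 (SE 0.30). Only RbpjiΔEC 1 and control 2 crossed. Mrc1, the mannose receptor, differed by −0.53 (SE 0.23), and Tgm2, a transglutaminase, by −0.44 (SE 0.17) with 6 of 6 probe sets negative and no overlap. Arg1, which consumes arginine, read 12.95 to 13.13 in control arrays, 12.86 to 13.10 in RbpjiΔEC 1, 3 and 4 and 11.97 in RbpjiΔEC 2. The estimate of −0.27 (SE 0.22) was −0.02 without that array.

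Uptake and lysosomal genes showed small estimates. Of 23 lysosomal genes 20 were negative with a median of −0.05, and apart from Acp5 the largest was Ctsa, cathepsin A, at −0.41 (SE 0.17), where the other probe set gave 0.02. Of 22 scavenger and dead-cell uptake genes 10 were negative and 12 positive with a median of 0.04. Marco, a scavenger receptor for bacteria and particles, read 13.42, 13.18, 13.28 and 13.44 in control and 13.07, 13.21, 12.88 and 12.86 in RbpjiΔEC arrays, a difference of −0.32 (SE 0.11). RbpjiΔEC 2 lay inside the control range.

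Lists of energy, protein turnover and growth had mostly negative estimates, and 2 arrays stood apart in them. Of 29 oxidative phosphorylation genes 26 were negative (median −0.12), of 20 mitochondrial ribosomal protein genes 19 (median −0.18) and of 22 proteasome genes 20 (median −0.10). In all 3 lists control 4 was the highest array, at 0.26, 0.38 and 0.31, and RbpjiΔEC 1 the lowest, at −0.14, −0.23 and −0.20. Without these arrays the medians were −0.006, 0.002 and 0.02. The 2 arrays were picked after the data were seen, as the extremes of these lists. A move of the medians towards 0 was therefore built into that choice, and nothing is concluded from it. Cox8a, a subunit of cytochrome oxidase, differed by −0.36 (SE 0.14) and the proteasome subunit gene Psmb6 by −0.37 (SE 0.18).

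Cell cycle and DNA replication genes gave 18 negative estimates of 25, with a median of −0.18 that was 0.07 without control 4. Control 4 had a mean deviation of 0.79, against −0.38 to 0.10 in the other 7 arrays. Mcm2, part of the replicative helicase, read 10.02 in control 4 and 8.57 to 8.95 elsewhere, and Mcm5, another helicase subunit, 10.97 and 8.20 to 9.48. Cholesterol synthesis followed in part, with 15 of 17 negative, a median of −0.17, and 0.56 in control 4. Dhcr7, the last enzyme of that route, differed by −0.53 (SE 0.19), and the early enzyme gene Mvk by 0.35 (SE 0.13). Of 15 fatty acid synthesis genes 12 were negative with a median of −0.21, among them Scd1, a desaturase, at −0.53 (SE 0.23), read at 9.04 in control 4 and 7.57 to 8.20 elsewhere. In these lists the high array was always control 4.

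**Figure D4:**
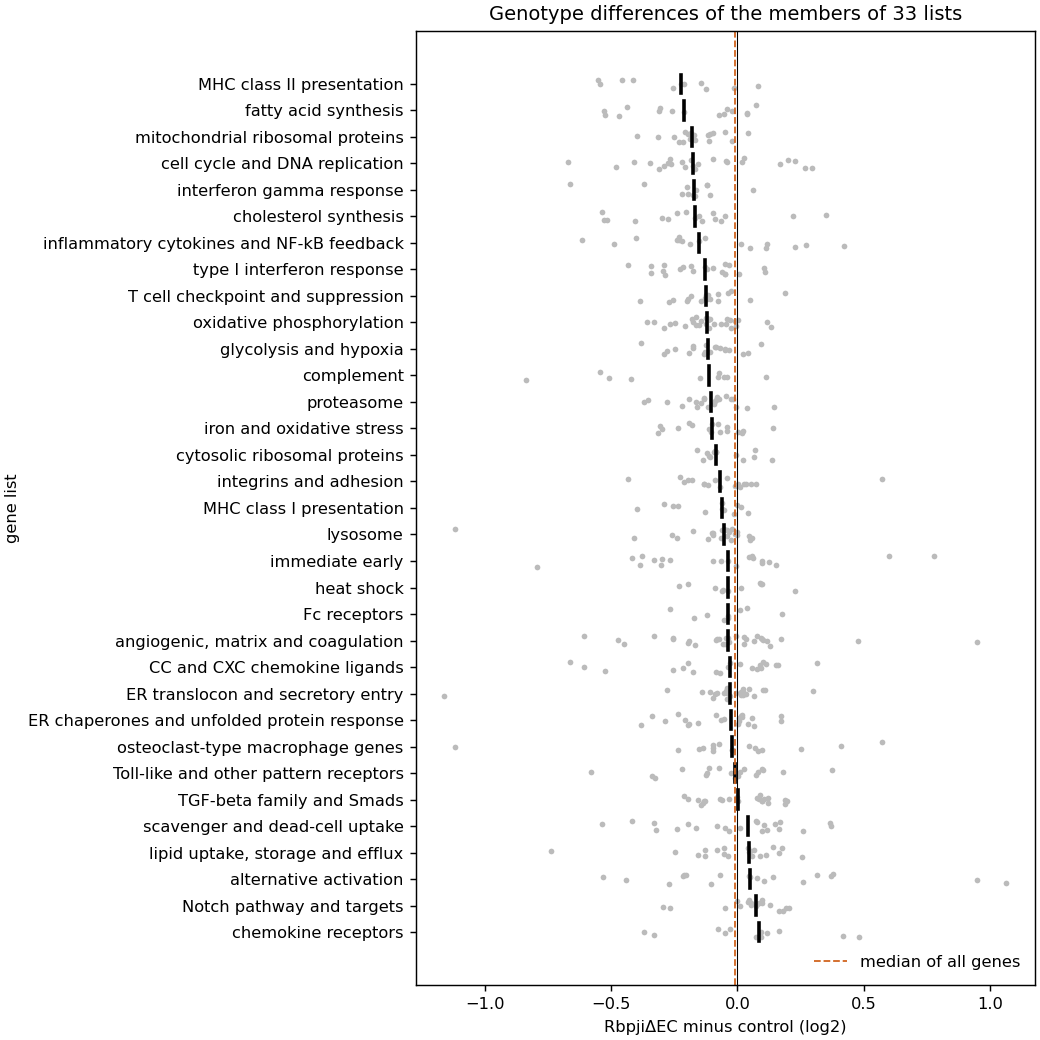
Each grey point is the RbpjiΔEC minus control difference (log2) of a measured member of 1 of 33 functional or pathway lists, the black bar is the list's median, and the dashed line is the median of all genes. Medians run from −0.22 for MHC class II to 0.08 for chemokine receptors, and 27 of 33 are negative.

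Of the 33 functional and pathway lists, 27 had a negative median. The count was 20 with the actin covariate. It was 21 without control 4 and RbpjiΔEC 1, which were picked after the data were seen. The share of all genes with a negative estimate was 43.7% and 47.7% in these settings. The share was larger in brighter genes, from 46.5% in the dimmest of 3 equal classes of genes to 56.4% in the brightest, and under median centring in place of quantile normalization it was 61.5% over all genes. With no further normalization it was 48.3%. Of 3 RNA quality controls, actin and 18S set RbpjiΔEC 1, 3 and 4 apart from RbpjiΔEC 2, and Gapdh did not. For the actin 3' minus 5' signal, RbpjiΔEC arrays gave 0.345 ± 0.101 and control arrays 0.220 ± 0.066 (SD, n = 4 each, two-sided exact permutation p = 0.0857). It was 0.380 to 0.409 in RbpjiΔEC 1, 3 and 4 and 0.195 in RbpjiΔEC 2. The 18S ribosomal RNA signal was 12.92 ± 0.37 and 13.35 ± 0.34 (n = 4 each, exact permutation p = 0.114), with RbpjiΔEC 2 at 13.47. The Gapdh 3' minus 5' signal was 0.168 ± 0.072 and 0.177 ± 0.027 (n = 4 each, exact permutation p = 0.857), with RbpjiΔEC 1 lowest at 0.0704 and RbpjiΔEC 3 highest at 0.229. The actin signal of RbpjiΔEC 1, 3 and 4 lay above every control array, which ran from 0.1585 to 0.301. The fit with the actin covariate therefore cannot tell RNA quality and genotype apart. The part of RNA quality in the list estimates was not tested. The smallest two-sided p that 4 against 4 arrays allow is 0.0286.

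Most markers of B, T and NK, mast, mesothelial and endothelial cells lay within 1 log2 unit of the trp control or below it. Some markers, of these or other lists, were bright in both genotypes. Means in RbpjiΔEC and control arrays were 12.88 and 12.79 for the platelet chemokine gene Pf4, 11.31 and 11.39 for Hdc, which makes histamine, 10.92 and 10.91 for the lectin gene Cd209a, and 10.61 and 10.62 for Csf3r, the receptor for G-CSF. Of 11 measured neutrophil markers 10 had negative estimates with a median of −0.29, and 6 had a mean under 7.43, which is 1 log2 unit above the trp control. Their mean level was 7.44 to 7.62 in RbpjiΔEC and 7.51 to 8.60 in control arrays, with control 2 highest. S100a8 and S100a9, the calprotectin subunits, read 9.43 and 10.14 in control 2 and at most 8.28 elsewhere. S100a8 read 8.11, 7.90 and 8.28 in the other control arrays and 7.41, 7.30, 7.67 and 7.53 in RbpjiΔEC arrays, so its groups did not overlap even so. Without control 2 the list median was −0.12.

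Mesothelial and fibroblast markers gave 11 of 12 negative estimates with a median of −0.17, and their mean level ran from 6.99 to 7.45 in RbpjiΔEC and from 7.14 to 7.67 in control arrays, again highest in control 4. Dcn, a matrix proteoglycan, differed by −0.50 (SE 0.20) at levels of 7.21 to 8.41. All 10 endothelial markers had positive estimates with a median of 0.06, at mean levels of 7.21 to 7.33 in RbpjiΔEC and 7.13 to 7.25 in control arrays. Of these, 7 had means under 7.43, including Pecam1 and Cdh5, and Egfl7, at 8.63 to 9.32, differed by 0.33 (SE 0.11). Dendritic cell markers had 10 positive estimates of 13 (median 0.06, mean levels 7.92 to 8.06 in RbpjiΔEC and 7.91 to 7.96 in control arrays). Mast cell and eosinophil markers had 9 of 13 (median 0.13, 7.06 to 7.22 and 7.04 to 7.19), erythroid and platelet markers 6 of 7 (median 0.09, 8.07 to 8.29 and 7.94 to 8.14) and epithelial markers 3 of 10 (median −0.05, 7.17 to 7.23 and 7.17 to 7.39). The ranges of the genotypes overlapped in these 4 lists. The mean level of 11 B cell markers was 7.34 to 7.38 and 7.21 to 7.48. That of 12 T and NK cell markers was 6.80 to 6.95 and 6.83 to 6.92. Of these 12, 1 read lower and 1 higher without overlap, beside 1.28% and 2.07% of all genes, and 11 had means under 7.43. The part of other cells in the results above was not tested.

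Correlations between arrays did not separate the genotypes. Correlations over all genes were 0.980 to 0.993 within and 0.974 to 0.993 between genotypes, and for 4 of the 8 arrays the most correlated array had the other genotype. The first principal component held 32.2% and the second 25.7% of the variance. On the first, control 1 and 4 and RbpjiΔEC 2 lay at −21.75, −19.63 and −21.71, and RbpjiΔEC 3 and 4 at 19.67 and 20.08. On the second, control 4 at 25.98 and RbpjiΔEC 1 at −27.6 lay farthest apart. Among 11879 genes with a mean of at least 7.43, control 4 departed by 1 log2 unit or more from the median of the other 7 arrays in 172, RbpjiΔEC 2 in 129 and RbpjiΔEC 1 in 98. The other 5 arrays departed in 14 to 53 genes.

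Some genes varied several-fold among arrays of the same label. F13a1, the coagulation factor XIII A chain of tissue macrophages, read 8.53 to 9.40 in control and 10.48, 12.07, 8.22 and 8.51 in RbpjiΔEC arrays. Cd163, the haemoglobin scavenger receptor, was also highest in RbpjiΔEC 1 and 2, with 9.75, 9.53, 7.96 and 8.21 in RbpjiΔEC and 8.16 to 8.78 in control arrays. In both, RbpjiΔEC 1 and 2 exceeded every control array. Gbp8, a guanylate-binding protein gene of the interferon response, read 9.14 to 10.59 in control and 7.89, 6.83, 10.21 and 11.07 in RbpjiΔEC arrays, and Plac8 read 9.35 to 10.20 in control and 8.26, 8.40, 10.05 and 11.03. For these, RbpjiΔEC 1 and 2 were below every control array.

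Fkbp5, a cochaperone of the glucocorticoid receptor that glucocorticoids induce, read 8.28 to 9.33 in control and 8.40, 8.38, 11.33 and 10.31 in RbpjiΔEC arrays. RbpjiΔEC 3 and 4 were above every other array. Cpe, Kctd14 and Strip2 were lowest in RbpjiΔEC 2, at 6.08, 6.76 and 6.42, and Cbr2, a carbonyl reductase gene, was highest there, at 11.01. Agr3, a protein disulphide isomerase gene usually seen in epithelium, was either near the trp control or far above it. It read 8.44, 6.24, 6.28 and 6.23 in control and 8.97, 9.35, 6.30 and 9.56 in RbpjiΔEC arrays. Its difference of 1.74 (SE 0.76) was the largest of all genes, with 1 control array among the high ones and 1 RbpjiΔEC array among the low ones.

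**Figure D5:**
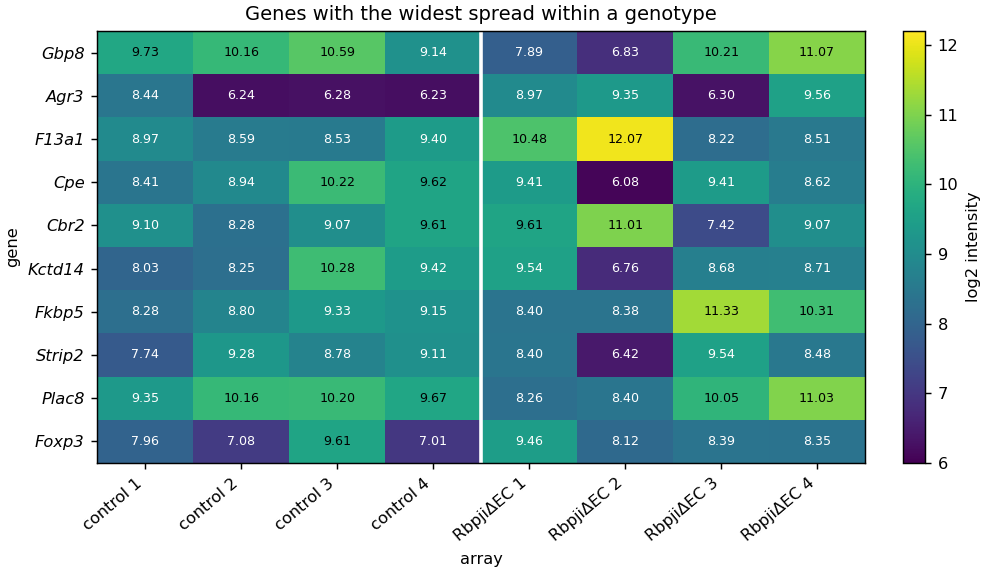
Rows are the 10 genes with the largest spread within a genotype, columns the 4 control and 4 RbpjiΔEC arrays, and colour and numbers give the log2 intensity. RbpjiΔEC 2 holds the highest F13a1 value, 12.07, and the lowest Cpe value, 6.08.

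The genotype difference was then set beside that of the CCR2- arrays, which share no array with it and differ from it in the range of their deposited means. Of 18194 genes, 0 (0%) passed the test of the difference between the labels at an adjusted p under 0.05. The smallest adjusted p was 0.999, and 555 genes had an unadjusted p under 0.05. In the fit of all 16 arrays Sec61b differed by −1.13 between genotypes in the CCR2+ and by −0.02 in the CCR2- arrays, which gave a difference between labels of −1.11 (SE 0.24, 95% interval −1.61 to −0.61). Acp5 differed by −1.05 and 0.05, Car13 by −0.80 and 0.25 and Nr4a1 by −0.75 and −0.06. Chil3 differed by 1.00 and −1.13, a difference between labels of 2.13 (SE 0.69). S100a8 was alike in the labels, at −0.89 and −0.99. For none of these genes did the test of the difference pass.

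For complement, 0 of 10 members passed the test of the difference between the labels. The recognition subunit genes C1qa, C1qb and C1qc differed by −0.05, −0.15 and −0.05 in the CCR2+ and by −1.004, −1.19 and −0.81 in the CCR2- arrays, while C2, read there from another of its probe sets because the brightest over 16 arrays was a different one, differed by −0.57 and −0.03. Of the 10 complement genes, 5 had an unadjusted p under 0.05 for the difference between labels, beside 555 of 18194 genes. Macrophage genes also read lower in the CCR2- RbpjiΔEC arrays. Of 10 gate and macrophage genes 9 had negative estimates there, with a median of −0.25, and Csf1r read 10.16 in control and 9.48 in RbpjiΔEC arrays, beside Cd79a at 12.78 and 12.83. The part of the cell mixture in the C1q values was not tested. The median of MHC class II genes was −0.22 for the CCR2+ label and −0.02 for the CCR2- label, and that of type I interferon genes −0.12 and 0.04. These list medians were not tested.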

How the data were processed

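The deposited table holds linear intensities of 45101 probe sets. The sources used here do not say what normalization the authors applied before deposit. The members of the comparison, the gene lists and the named genes were chosen with earlier results of these data known. The deposited intensities were log2 transformed and quantile normalized over the 8 arrays. Of the probe sets, 34958 had 1 gene symbol, 932 several and 9211 none, and only the first were used. The probe set with the highest mean stood for each of 18194 genes. Differences were fitted with limma 3.58.1 in R 4.3.3 (two-sided, no intensity filter), and p values were adjusted by Benjamini-Hochberg across the 18194 genes, with a threshold of 0.05. The steps were checked on simulated data. Of 778 genes in 45 lists, 703 were measured, and lists had no test. Array controls had exact permutation tests. The difference between labels was an interaction term over 16 arrays.

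The naming rule took the 15 smallest p values and 10 largest differences in each direction among genes without overlap and at least 1 log2 unit above the trp control, 2 members of each list in each direction, the 10 widest spreads, the 5 smallest interaction p values and a set of genes of interest. Gene models with Gm numbers or Rik names were left out. Other list members, Acod1 and Wnt8b were named after their values were seen, as was the part of the rule's genes that is printed. Numbers were not treated as pairs, because the labels do not say that a number marks a shared animal or batch. Correlations of deviations between same-numbered arrays were 0.152, −0.373, −0.03 and 0.003. Alternatives were other scalings, probe set rules, filters, variance settings, an actin covariate and leaving out arrays.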

Additional observations from a re-analysis of the deposited data

Results flagged for a closer look

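In 13 of 304 groups of 4 arrays examined, 1 array lay far from the other 3 relative to the range of the group. Chance gives about 1 in 20 such groups. RbpjiΔEC 2 was the distant array in 6 of them. It read low for Hdgfl3 (10.64, the nearest of the other arrays 11.03), Notch2 (13.42 and 13.77) and Tgm2 (11.90 and 12.56), and high for Tap2 (9.08 and 8.73). Its actin 3' minus 5' signal of 0.195 was below the other 3 RbpjiΔEC arrays, the nearest at 0.380, and its 18S ribosomal RNA signal of 13.47 was above them, the nearest at 12.77. Control 1 stood apart for Agr3, at 8.44 with the nearest control array at 6.28, and for Ier3, at 10.48 against 10.02. Control 4 was high for Trem3, at 9.64 against 7.84, and control 2 low for Tapbp, at 12.47 against 12.74. RbpjiΔEC 4 was high for Oas3, at 8.76 against 8.34, and low in the mean deviation of the fatty acid synthesis list, at −0.24 against −0.07. RbpjiΔEC 1 was low in the mean deviation of the proteasome list, at −0.20 against −0.03 in the nearest RbpjiΔEC array.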

How the results depend on the processing

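With 4 arrays a group, the number of arrays limits the precision, and genes near the trp control carry little signal. No gene was called in any of 18 alternatives to the genotype test (limma, smallest adjusted p 0.0835 for Sec61b with all 16 arrays in the fit, up to 1 without control 4) or in 22 alternatives to the test between labels. Leaving out RbpjiΔEC 2 gave a smallest adjusted p of 0.126 and 854 genes lower at an unadjusted p under 0.05, against 435 with all arrays. That count was 266 without control 4, and 287 genes read higher when the dimmest tercile was left out, against 483. With replicate number as a block, 0 genes were called, 397 read lower and 355 higher at an unadjusted p under 0.05. Same-numbered arrays did not deviate together, and 0 of 8 arrays was most like its own number. The number of 33 lists with a negative median ran from 20 with the actin covariate to 30 under median centring. Of 103 printed gene differences, 81 kept their sign in every alternative and 22 turned in at least 1, and the cause was not tested. Leaving out 1 array at a time, the ranges that crossed 0 were −0.060 to 0.046 for Adgre1, −0.32 to 0.88 for Cbr2, −0.73 to 0.13 for Ccr2, −0.12 to 0.011 for Gata6, −0.10 to 0.070 for Hes1, −0.041 to 0.16 for Notch1, −0.047 to 0.16 for Rbpj, −0.97 to 0.077 for Strip2 and −0.049 to 0.053 for Timd4. Of the array controls, the Gapdh 3' minus 5' signal difference ran from −0.0298 to 0.023 and that of trp from −0.0437 to 0.00699, with 0.000631 for trp in the values as deposited. With the actin covariate the sign turned for Gata6 (0.0062), Ssr2 (0.098), Hes1 (0.093), C1qa (0.036), C1qb (0.046), C1qc (0.017), Notch2 (−0.12), Ptprc (−0.0059), Timd4 (−0.063), Mx1 (−0.14), Oas2 (−0.13), Nfkbia (−0.052) and Fkbp5 (−0.11). Array weights gave −0.053 for Rbpj, 0.023 for Adgre1, 0.089 for Plac8 and −0.083 for Cbr2. The mean of all probe sets gave −0.0043 for Sec61a1 and −0.034 for Notch2. The fit of all 16 arrays, which picks the brightest probe set anew, gave 0.067 for Tbc1d30. The other probe set of that gene gave 0.07 over the 8 arrays. Median centring gave −0.0073 for Notch1 and −0.051 for Timd4, and no further normalization −0.0029 for Timd4. Leaving out control 4 and RbpjiΔEC 1 together, an alternative chosen after seeing the data, gave −0.11 for Rbpj, 0.10 for Hes1, −0.044 for Timd4, 0.0048 for C1qa and 0.017 for C1qc.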
